A study of Mus musculus with 157 samples.

Results

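Kinesins are motor proteins that use ATP to move along microtubules or to take them apart. One set works in the mitotic spindle and at cytokinesis, where it pushes the poles apart, aligns chromosomes and builds the midzone, and many of its genes are transcribed mainly in cycling cells. Another set carries vesicles, organelles and protein complexes along interphase microtubules. Splenic B cells stimulated with a mitogen enter the cell cycle, so both sets can be read in them.

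The kinesins described here were the protein-coding rows of the count table whose gene name begins with Kif followed by a digit, a rule that used no measured value. It found 34 genes of 16519 protein-coding genes and 19600 genes in all. By their known function, 11 were grouped as mitotic kinesins, 15 as transport kinesins and 8 as others (Kif2a, Kif6, Kif9, Kif19a, Kif24, Kif26a, Kif26b and Kif27). The motors Kifc1, Kifc2, Kifc5b and Cenpe fall outside the name pattern and are given only beside the members.

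The study asked how etoposide-induced DNA damage, with and without inhibition of the ATM kinase, altered mRNA on ribosomes in activated B cells. Primary splenic B cells from C57BL/6Babr mice, all stimulated with LPS at 10 µg/ml, formed 3 groups. The LPS group had 48 h of LPS alone. The LPS+ET group had 48 h of LPS and then etoposide, a topoisomerase II poison that leaves DNA double-strand breaks, at 20 µM for 4 h. The LPS+ET+KU group had, per the labels, 47 h of LPS, the ATM inhibitor KU55933 at 10 µM for 1 h and then the same etoposide exposure. No group received the inhibitor without etoposide, so its effect alone cannot be told apart from its effect on the response. Each group had 4 sucrose gradients, which the study calls biological replicates, and 13 fractions of each gradient were sequenced from transcript 3′ ends. Fractions 4 to 7 held monosomes, 8 to 10 light polysomes and 11 to 16 heavy polysomes.

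The 157 libraries held 156885278 counts, from 14724 to 4170688 per library of fractions 4 to 16, with 12 libraries under 100000. The 12 gradients, each summed over its fractions, held 6404957 to 21449781 counts. A gradient is named here by its treatment and its library pool, of which there were 4, LUL15 to LUL18, with all treatments present once in every pool. The LPS+ET gradient of pool LUL16 stood apart, with 30.4% of its counts in heavy polysomes against 60.5% to 68.2% in the other LPS+ET gradients. That share was 52.3% to 62.4% in LPS and 37.6% to 55.5% in LPS+ET+KU, so the summed levels weight the fractions differently. The 7 B cell markers summed to 16674 to 30064 counts per 1000000 (CPM), and none of them passed in a comparison of 2 treatments by edgeR, with 3 at most at an unadjusted p under 0.05. DESeq2 called 1 in LPS+ET against LPS. Of the T cell markers, Lck stood at 71.9 to 362 CPM while Cd3d, Cd3e, Cd3g and Cd8a were each at most 1.61 CPM, and 6 myeloid markers summed to 29.1 to 157 CPM. The myeloid marker Cd14 was higher in LPS+ET+KU than in LPS, by 3.83 on the log2 scale, and its part in the results was not tested. Unless another tool is named, fits used edgeR's quasi-likelihood test with Benjamini-Hochberg adjustment over all genes tested, and a gene was called at an adjusted p under 0.01. With 4 gradients a treatment, p-values measure the spread between gradients. The main fit had treatment as its only term, although gradients of a pool deviated together. Its spread therefore holds the differences between pools, and fits with the pool as a block are given beside it.

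Kinesins contributed 62631 counts, 0.0399% of the total. Because each transcript gives 1 tag at its 3′ end, CPM were compared between genes without division by length. Of the 34 kinesins, 28 passed the filter on low counts: all 11 mitotic kinesins, 13 of 15 transport kinesins and 4 of 8 others. The 6 that did not pass were Kif17, Kif21a, Kif6, Kif26a, Kif26b and Kif27, each with 0 to 11 counts in a gradient. Averaged over the 12 gradients, Kif15 was the most abundant at 55.9 CPM, followed by Kif21b at 51.9 CPM, Kif1c at 47.1 CPM and Kif22 at 28.3 CPM. The least abundant mitotic kinesins were Kif20b at 1.43 CPM and Kif2c at 1.32 CPM. The neuronal motors Kif5a, Kif5c and Kif1a were at 1.74, 1.30 and 0.76 CPM, and 92.2% of the Kif1a counts lay at intronic sites.

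Taken as sums, the mitotic kinesins were lower in both etoposide groups than in LPS. The direction of the transport sum rested on Kif1c and Kif21b. The 11 mitotic kinesins summed to 312 ± 33.4 CPM in LPS (SD, n = 4), 222 ± 30.8 CPM in LPS+ET, then 135 ± 38.9 CPM with LPS+ET+KU. The 15 transport kinesins summed to 139 ± 3.95, 174 ± 17.0 and 155 ± 5.54 CPM. The ratio of the 2 sums was 2.07 to 2.53 in the gradients of LPS, 1.08 to 1.53 in those of LPS+ET, then 0.676 to 1.20 with the inhibitor. The ranges of LPS and of either etoposide group did not overlap, while those of LPS+ET and LPS+ET+KU did. In each of the 4 pools the order was LPS, LPS+ET, LPS+ET+KU from high to low. Without Kif1c, a sum added after the data were seen, the other 14 transport kinesins gave 121 ± 3.08, 97.3 ± 6.68 and 108 ± 15.2 CPM. That sum was lower in LPS+ET than in LPS with no overlap, and overlapped between LPS+ET+KU and LPS. With it the ratio was 2.42 to 2.89 in LPS, 2.13 to 2.74 in LPS+ET, then 1.04 to 1.45 with the inhibitor, so LPS and LPS+ET overlapped. These sums are descriptions and carry no test.

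**Figure D1:**
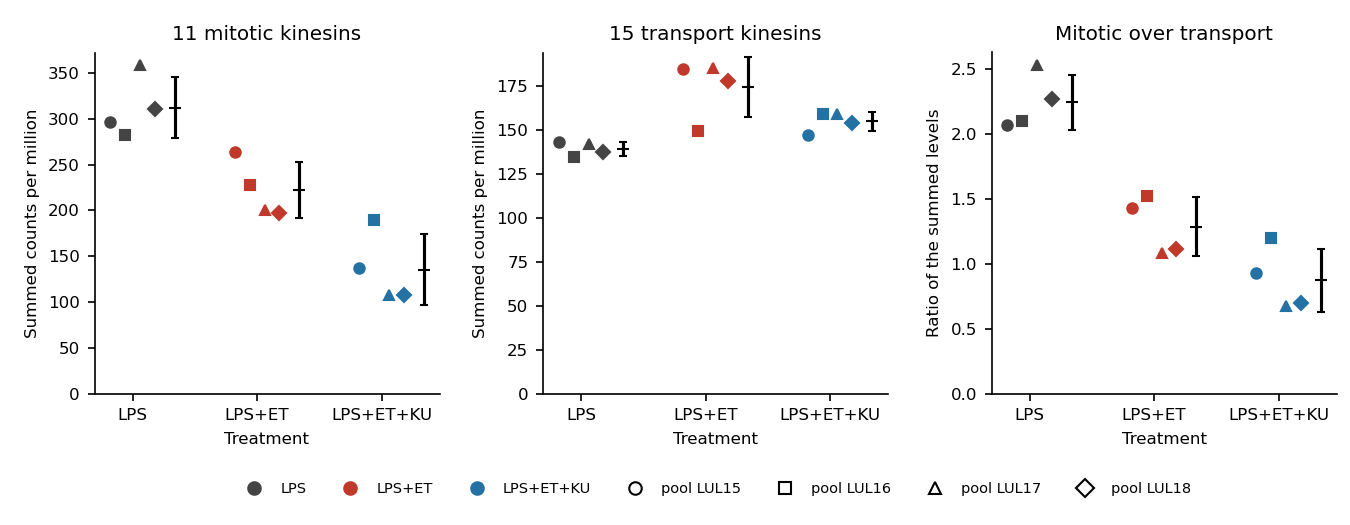
Summed CPM of the 11 mitotic and 15 transport kinesins, and the ratio of the 2 sums, by treatment. Each point is 1 gradient, the marker gives its library pool, and the bars show the mean and SD of 4 gradients. The mitotic sum is above 282 in all LPS gradients and below 190 in all LPS+ET+KU gradients. The transport sum and the ratio include Kif1c, without which the mean transport sum is lower in LPS+ET than in LPS. Kif21b, whose own mean is lower in LPS+ET, stays in that sum.

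The first comparison asked what etoposide did to kinesin mRNA on ribosomes, with the 13 fractions of a gradient summed. Of the 28 kinesins tested 5 were called, beside 12.7% of the 12755 genes tested. Of these calls 3 were higher and 2 lower, beside 7.88% and 4.81% of all genes. Kif11 and Kif22 fell, and Kif18b, Kif1c and Kif1b rose. In these bulk samples, fewer cells holding an mRNA and less of it per cell cannot be told apart. Levels in CPM are relative to the other mRNA of a gradient, so absolute loading on ribosomes was not measured. The paper reports a global fall in polysome assembly after etoposide. Total mRNA was not read here, so a change in abundance and a change in ribosome association cannot be told apart. Among the 11 mitotic kinesins the median log2 change was -0.84, against 0.03 over all genes, and 10 of the 11 values were negative. Among the 13 transport kinesins the median was 0.32, with 10 positive values. The 4 and 4 gradients did not overlap for 13 of the 28 kinesins, beside 27.5% of all genes tested.

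Kif22, a chromokinesin that pushes chromosome arms away from the spindle poles, is encoded at chr7:127027732-127042420 (GRCm38, minus strand). It stood at 47.5, 47.5, 50.2 and 46.0 CPM in the LPS gradients of pools LUL15 to LUL18. In LPS+ET it stood at 25.6, 21.1, 24.3 and 18.5 CPM. No LPS+ET gradient reached the lowest LPS value, and the fitted level fell 2.13-fold (log2 change -1.09 ± 0.17 SE, adjusted p = 4.4e-04). Kif11, the tetrameric motor that slides spindle microtubules apart, went from 36.5, 38.5, 44.7 and 42.6 CPM in LPS to 26.2, 17.5, 14.9 and 20.5 CPM in LPS+ET. These gradients did not overlap either (log2 change -1.03 ± 0.21 SE, adjusted p = 0.0028). Both calls were lost in a limma fit with equal weight for every fraction, which changed the weighting and the tool together, at log2 changes of -0.94 and -0.88. The Kif11 call was also lost without the LPS+ET gradient of pool LUL17, at a log2 change of -0.92.

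Among the mitotic kinesins of the name pattern, Kif18b went the opposite way to the others, while Kifc1, outside that pattern, also rose. Kif18b is a kinesin-8 motor that shortens astral microtubules, encoded at chr11:102905529-102925124 on the minus strand. Its LPS gradients stood at 11.3, 15.2, 13.4 and 12.6 CPM and its LPS+ET gradients at 41.0, 41.0, 40.5 and 45.7 CPM. The lowest LPS+ET value was well above the highest LPS value, and the level rose 3.20-fold (log2 change 1.68 ± 0.15 SE, adjusted p = 5.8e-06). The call held under all 8 other settings and without each of the 8 gradients in turn, at log2 changes of 1.6 to 1.75 without 1 gradient. Its counts came from 3 sites in untranslated exonic sequence. Gm26668 overlaps the gene on the opposite strand, and whether the counting used strand is not given in the sources used here.

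The remaining 8 mitotic kinesins had negative values that did not pass the test. Kif4, a chromokinesin that also organises the midzone with Prc1, stood at 37.7, 32.8, 51.1 and 48.3 CPM in LPS and 25.8, 26.3, 16.3 and 16.4 CPM in LPS+ET (log2 change -1.0 ± 0.29 SE, adjusted p = 0.0225). Kif18a, which aligns chromosomes by acting on kinetochore microtubules, stood at 13.5, 9.60, 15.9 and 14.0 CPM and then 8.04, 6.89, 7.64 and 6.94 CPM (log2 change -0.84 ± 0.22 SE, adjusted p = 0.0159). Both had gradients that did not overlap. Kif14, which acts with citron kinase in cytokinesis, stood at 41.4, 37.4, 38.3 and 34.5 CPM and then 33.6, 28, 13.7 and 16.3 CPM. Kif15, which helps Kif11 to hold the poles apart, stood at 67.8, 65.5, 94.3 and 63.1 CPM and then 65.9, 66.7, 50.7 and 43.6 CPM. Their log2 changes were -0.73 ± 0.32 (adjusted p = 0.124) and -0.36 ± 0.28 (adjusted p = 0.411), and only Kif15 had gradients that overlapped.

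Kif20a and Kif23 act at the midzone. Kif20a, which carries the chromosomal passenger complex to the midzone, stood at 21.4, 18.9, 27 and 27.7 CPM in LPS and 18.2, 9.39, 20.8 and 16.9 CPM in LPS+ET (log2 change -0.53 ± 0.23 SE, adjusted p = 0.112). Kif23, the motor subunit of centralspindlin, stood at 15.2, 13.6, 19 and 18.6 CPM and then 15.8, 9.23, 9.93 and 10.4 CPM (log2 change -0.54 ± 0.25 SE, adjusted p = 0.137). Both overlapped between the groups. Kif20b stood at 1.65, 1.48, 3.62 and 2.40 CPM and then 1.56, 0.626, 0.993 and 1.32 CPM (log2 change -0.97 ± 0.41 SE, adjusted p = 0.107). The microtubule depolymerase Kif2c stood at 2.59, 1.93, 1.93 and 1.49 CPM and then 1.87, 0.626, 0.688 and 0.439 CPM (log2 change -1.09 ± 0.45 SE, adjusted p = 0.0975). These last 2 rested on as few as 4 counts in a gradient, which limits what could be detected.

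Of the transport kinesins, the kinesin-3 motors Kif1c and Kif1b rose. Kif1c, which carries vesicles and integrins, stood at 21.9, 17.7, 17.7 and 15.4 CPM in LPS and 87.8, 42.1, 91.0 and 85.8 CPM in LPS+ET. The LPS+ET gradient of pool LUL16, the one that stood apart, was the lowest of its group and still above all LPS gradients, and the level rose 4.22-fold (log2 change 2.08 ± 0.27 SE, adjusted p = 1.3e-04). Without that gradient the log2 change was 2.27. Kif1b, a carrier of mitochondria and synaptic vesicle precursors, stood at 5.90, 4.09, 6.79 and 7.12 CPM and then 14.4, 15.2, 13.8 and 14.9 CPM (log2 change 1.29 ± 0.19 SE, adjusted p = 2.6e-04). Its groups did not overlap, and 30.4% of its counts lay at intronic sites. Kif1c and Kif1b were called under all 8 other settings and without each gradient in turn.

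Kif21b, the most abundant transport kinesin averaged over all gradients but below Kif1c in the means of both etoposide groups, is a motor that also restrains microtubule growth. It stood at 73.6, 77.8, 72.2 and 74.8 CPM in LPS and 36.1, 51.8, 33.5 and 31.6 CPM in LPS+ET, with no overlap (log2 change -0.97 ± 0.24 SE, adjusted p = 0.0113). Its direction was opposite to that of Kif1c and Kif1b, and it just missed the threshold. Kif5b, the heavy chain of conventional kinesin, stood at 11.9, 8.41, 15.9 and 14.7 CPM and then 12.2, 11.0, 13.5 and 14.4 CPM (log2 change 0.02 ± 0.24 SE, adjusted p = 0.976). Kif3b, a subunit of heterotrimeric kinesin-2, stood at 12.9, 13.0, 6.57 and 9.69 CPM and then 14.4, 10.5, 10.2 and 13.1 CPM (log2 change 0.19 ± 0.22 SE, adjusted p = 0.602). Both groups overlapped for these 2 motors. The other 8 transport kinesins tested had log2 changes from -0.19 for Kif3c to 1.11 for Kif5a. Kif17, a kinesin-2 homodimer that failed the filter, had 0 counts in all 4 LPS gradients, 26 counts in LPS+ET, then 7 with the inhibitor. Against a floor of 3 counts over the LPS group, its pooled CPM was 11.3-fold higher in LPS+ET and 2.2-fold higher in LPS+ET+KU. These ratios take the pooled counts as exact. DESeq2, and edgeR without the filter on low counts, called Kif17 higher in LPS+ET than in LPS, while the main fit did not test it. Single gradients held 1 to 11 counts in LPS+ET and 1 to 3 with the inhibitor, so the size of the rise is uncertain.

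Of the 4 other kinesins tested none passed. Kif24, a centriolar kinesin that restrains the growth of cilia, stood at 8.34, 9.77, 7.13 and 8.61 CPM in LPS and 5.23, 5.48, 4.74 and 4.22 CPM in LPS+ET (log2 change -0.79 ± 0.26 SE, adjusted p = 0.0409). The groups did not overlap, but 52.6% of its counts were intronic. The depolymerase Kif2a had a log2 change of -0.68 ± 0.22 (adjusted p = 0.0384). With the pool as a block, 11 kinesins were called in this comparison, beside 26.7% of all genes. They were the 5 above together with Kif4, Kif14, Kif18a, Kif21b, Kif24 and Kif2a, all lower.

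**Figure D2:**
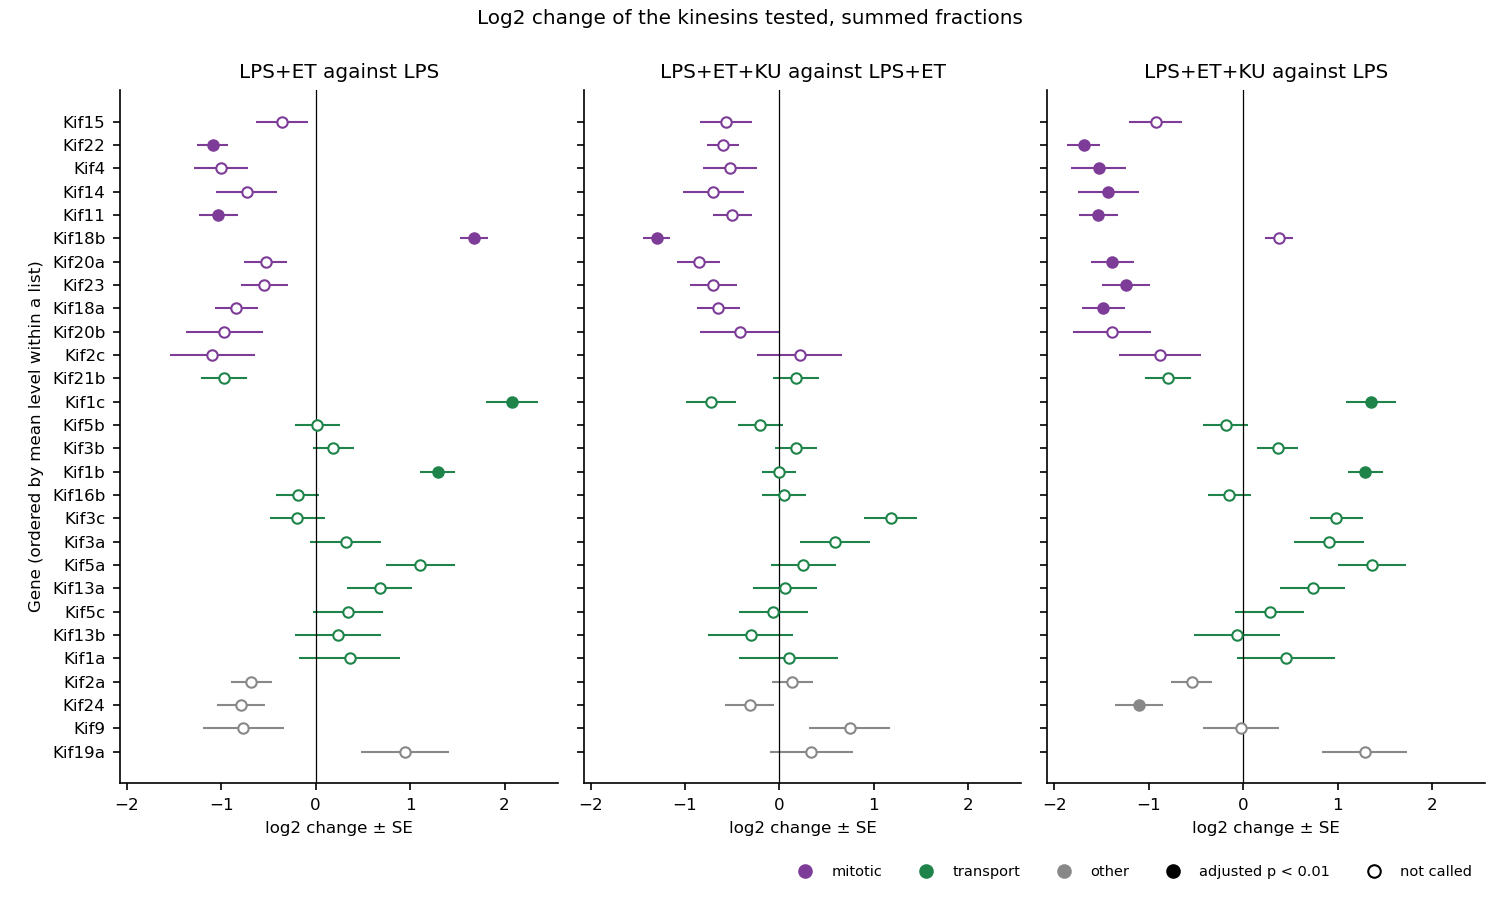
Log2 change with its standard error for the 28 kinesins tested, in 3 comparisons of the summed fractions. Colours give the group, and filled points have an adjusted p under 0.01. In each panel 10 of the 11 mitotic kinesins lie left of 0. The exception is Kif18b in both panels against LPS and Kif2c in the panel against LPS+ET.

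Many promoters of the mitotic kinesins hold a short element that the name rule did not use. The cell cycle genes homology region is a motif read as TTTGAA or TTCGAA, usually found close to the start of genes expressed late in the cell cycle. Both strands were searched, and on the opposite strand TTTGAA reads as TTCAAA while TTCGAA reads the same. RefSeq promoter sequences (GRCm38.p6, 250 bases before to 50 after each start) were matched by symbol for 28 of the 34 kinesins, among them 10 of the 11 mitotic ones. Within 30 bases of a start the motif was present in 7 of these 10 mitotic kinesins and in none of the 11 transport kinesins matched. It was present there in 3.40% of all 32851 promoter windows and for 3.95% of all 27025 genes. Anywhere in the 300 bases it was found for 9 of the 10 mitotic kinesins, 1 of the 11 transport kinesins (Kif1a) and 21.7% of all genes.

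The windows of 30 bases around it are shown for the 7 mitotic kinesins, 5′ to 3′ on the strand of the gene, with the motif in capitals.
Kif11: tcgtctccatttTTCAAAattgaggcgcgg
Kif15: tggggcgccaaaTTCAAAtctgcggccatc
Kif22: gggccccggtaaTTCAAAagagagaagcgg
Kif18b: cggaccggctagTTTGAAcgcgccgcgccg
Kif20b: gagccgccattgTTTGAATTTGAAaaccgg
Kif23: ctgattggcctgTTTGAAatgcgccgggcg
Kif4: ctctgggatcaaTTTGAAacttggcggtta

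The window of Kif22 is at chr7:127042420-127042449 on the minus strand, and that of Kif11 is at chr19:37376351-37376380 on the plus strand. In Kif11, Kif15 and Kif22 the motif lies on the opposite strand and begins 19, 19 and 17 bases before the start. In the other 4 it lies on the strand of the gene and begins 3 to 20 bases into the transcript. Kif18b, whose mRNA rose, carries it at chr11:102925104-102925133 on the minus strand, 4 bases into the transcript, as Kif23 does at position 3. Kif20b has a pair of copies side by side. Of the mitotic kinesins with no copy near the start, Kif14 and Kif2c had one farther upstream, and Kif18a had none in the 300 bases. Among the other kinesins Kif24 and Kif26b had a copy near the start. A match of letters shows neither binding nor a cause of any change.

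The second comparison asked what the ATM inhibitor changed in cells that also had etoposide. Kif18b was the 1 kinesin called of 28, and it was lower, beside 0.455% of all genes called in either direction and 0.235% called lower. This comparison shares its LPS+ET gradients with the first. Kif18b fell from 41.0, 41.0, 40.5 and 45.7 CPM in LPS+ET to 18.9, 16.2, 17.1 and 16.0 CPM in LPS+ET+KU, with no overlap (log2 change -1.30 ± 0.15 SE, adjusted p = 0.0013), which is 2.46-fold lower. It was called without each of the 8 gradients in turn, but not when only these 8 gradients were fitted or in the limma fit with equal weight per fraction, where the log2 changes were -1.30 and -0.91. The median log2 change was -0.60 over the 11 mitotic and 0.06 over the 13 transport kinesins, against 0.04 over all genes. With the pool as a block, 3 kinesins were called, beside 6.36% of all genes: Kif18b and Kif20a were lower and Kif3c was higher.

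Kif20a stood at 8.25, 8.45, 10.1 and 9.46 CPM in LPS+ET+KU, below 3 of the 4 LPS+ET gradients (log2 change -0.85 ± 0.23 SE, adjusted p = 0.0713). Cdc23 overlaps Kif20a on the opposite strand, which without stranded counting could share its reads. Kif22 stood at 14.8, 18.5, 14.0 and 11.8 CPM and Kif18a at 4.93, 6.49, 3.84 and 3.54 CPM. Neither overlapped with its LPS+ET gradients, Kif22 by a margin below the rounding, and neither passed the test, at adjusted p = 0.0836 and adjusted p = 0.169. The 4 and 4 gradients did not overlap for 4 of the 28 kinesins in this comparison, beside 8.57% of all genes. The fourth besides Kif18b, Kif22 and Kif18a was Kif3c, a kinesin-2 motor, at 2.73, 2.97, 3.97 and 3.69 CPM in LPS+ET, against 4.43, 10.1, 9.40 and 6.31 CPM with the inhibitor (log2 change 1.18 ± 0.28 SE, adjusted p = 0.0466). Kif3c overlaps Gm48512 and 1110002L01Rik on the opposite strand, whose reads without stranded counting may not be told apart from its own. Kif1c stood at 48.9, 28.2, 55.7 and 53.5 CPM, lower than the LPS+ET gradient of its own pool in all 4 pools, without passing (log2 change -0.72 ± 0.26 SE, adjusted p = 0.181). Kif1b was level with LPS+ET, at 13.8, 13.7, 15.8 and 15.2 CPM and a log2 change of 0.00 ± 0.18.

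The third comparison set LPS+ET+KU directly against LPS, and here 10 of the 28 kinesins were called, beside 10.7% of all genes. Of these 2 were higher and 8 lower, beside 6.25% and 4.42% of all genes. The 8 lower were 7 mitotic kinesins and Kif24. The median log2 change was -1.39 over the 11 mitotic kinesins and 0.46 over the 13 transport kinesins, against 0.09 over all genes. This comparison shares its LPS gradients with the first, so the 2 are given side by side and their resemblance is no separate result. Kif22 was 3.23-fold lower than in LPS (log2 change -1.69 ± 0.17 SE, adjusted p = 3.7e-05), where it had been 2.13-fold lower with etoposide alone. Kif11 stood at 13.4, 18.5, 10.9 and 13.2 CPM (log2 change -1.53 ± 0.21 SE, adjusted p = 2.9e-04). Kif18a and Kif20a had log2 changes of -1.48 ± 0.23 (adjusted p = 6.4e-04) and -1.38 ± 0.23 (adjusted p = 0.0011). These 4 were called under all 8 other settings and without each of the 8 gradients in turn. Heavy fractions held 37.6% to 55.5% of the counts of the LPS+ET+KU gradients and 52.3% to 62.4% of those of LPS. The limma fit with equal weight per fraction called 6 kinesins, these 4 lower and Kif1b and Kif1c higher.

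Kif4, Kif14 and Kif23 also fell, to 13.8, 24.1, 9.99 and 10.8 CPM, 15.5, 22.3, 8.93 and 9.46 CPM and 7.85, 9.72, 5.10 and 5.31 CPM. Their log2 changes were -1.53 ± 0.29 (adjusted p = 0.0026), -1.43 ± 0.33 (adjusted p = 0.0075) and -1.24 ± 0.25 (adjusted p = 0.0037). In each of the 3 the LPS+ET+KU gradient of pool LUL16 was the highest of its group and below all LPS gradients. They were less stable calls: without single gradients Kif4 was called in 7 of 8 fits, Kif23 in 4 and Kif14 in 1. Kif24 stood at 3.02, 5.49, 2.38 and 4.77 CPM (log2 change -1.10 ± 0.26 SE, adjusted p = 0.0082) and was likewise called in 1 of 8. Kif15 stood at 37.6, 63.6, 26 and 25.7 CPM and did not pass (log2 change -0.92 ± 0.28 SE, adjusted p = 0.0309). Kif20b and Kif2c stood at 0.704, 0.636, 0.728 and 1.38 CPM and 1.21, 1.5, 0.728 and 0.846 CPM, at log2 changes of -1.39 ± 0.41 and -0.88 ± 0.43 without passing.

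Kif18b was the 1 mitotic kinesin of the name pattern with a positive value against LPS. Its 4 and 4 gradients did not overlap, but it did not pass (log2 change 0.38 ± 0.15 SE, adjusted p = 0.0759). Kif1b and Kif1c were higher than in LPS, at log2 change 1.29 ± 0.19 SE, adjusted p = 4.0e-04 and log2 change 1.36 ± 0.27 SE, adjusted p = 0.0032. Kif1b was called without each gradient in turn and Kif1c in 3 of 8 such fits. Kif21b stood at 36, 68.5, 31.4 and 35.9 CPM (log2 change -0.79 ± 0.24 SE, adjusted p = 0.0311), with the gradient of pool LUL16 near the LPS level. Kif5b and Kif3b stood at 11.3, 7.17, 13.0 and 13.2 CPM and 14.7, 14.4, 12.0 and 13.5 CPM, at log2 changes of -0.19 ± 0.24 and 0.36 ± 0.22. With the pool as a block, 17 kinesins were called, beside 28.1% of all genes: those 10, Kif15, Kif20b, Kif2a and Kif21b lower, and Kif3a, Kif3c and Kif5a higher. The gradients did not overlap for 15 of the 28 kinesins, beside 26.4% of all genes.

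**Figure D3:**
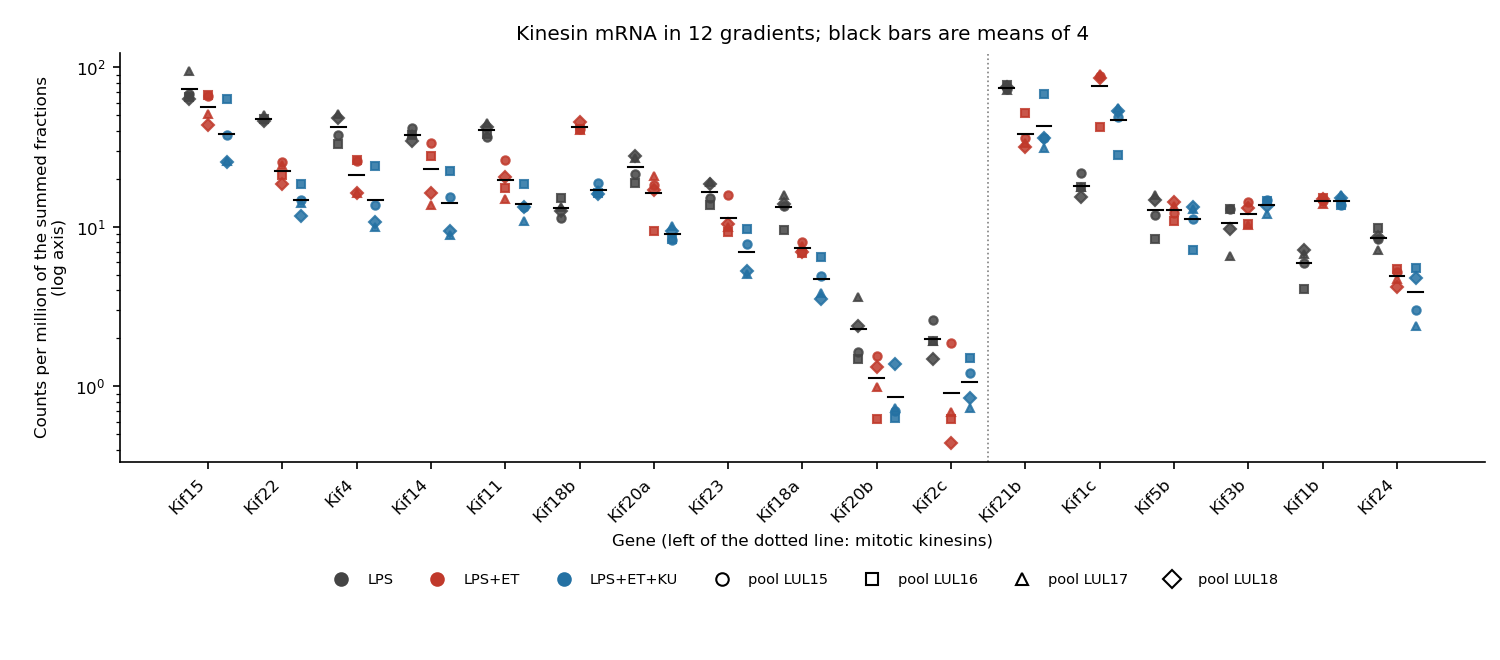
CPM of the 17 kinesins described singly, in each of the 12 gradients, on a log axis. Colours give the treatment, markers the library pool and black bars the mean of 4 gradients. Kif18b is highest in LPS+ET at 40.5 to 45.7, while Kif22 is highest in LPS at 46.0 to 50.2.

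The monosome, light and heavy fractions were then fitted separately. Kif1c rose with etoposide in all 3 classes, and it was called there by DESeq2 and without each of the 8 gradients in turn. Kif18b was also called higher in all 3, but less firmly outside heavy polysomes. With single gradients left out it was called in 8 of 8 fits in heavy polysomes, in 4 of 8 in light polysomes and in 1 of 8 in monosomes. DESeq2 did not call Kif18b in monosomes. With single gradients left out, the monosome call of Kif1b also held in only 1 of 8 fits. In monosomes 3 of 16 kinesins tested were called, beside 9.52% of genes in either direction and 6.44% higher, and all 3 were higher: Kif1c (log2 change 2.20 ± 0.26 SE, adjusted p = 6.8e-05), Kif1b (log2 change 1.63 ± 0.37 SE, adjusted p = 0.0071) and Kif18b (log2 change 1.12 ± 0.26 SE, adjusted p = 0.0086). In light polysomes 3 of 18 were called, beside 10.6% of genes, namely Kif1c (2.18 ± 0.21) and Kif18b (1.43 ± 0.28) higher and Kif11 (-1.09 ± 0.26) lower. In heavy polysomes 3 of 27 were called, beside 9.69% of genes in either direction and 6.14% higher, and again Kif18b (2.01 ± 0.27), Kif1c (1.97 ± 0.36) and Kif1b (1.39 ± 0.25) were higher. These values are log2 changes with their SE.

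In heavy polysomes Kif18b stood at 13.6, 16.9, 16.6 and 14.6 CPM in LPS, 57.7, 99.1, 48.1 and 57.0 CPM in LPS+ET, then 32.3, 29.7, 20.5 and 22.4 CPM with the inhibitor. The 3 groups did not overlap, and the highest value belonged to the LPS+ET gradient that stood apart. Kif1c in monosomes stood at 6.35, 5.61, 8.40 and 6.07 CPM, then 31.8, 26.4, 28.6 and 29 CPM and 22.2, 12.9, 16.9 and 17.0 CPM. There LPS+ET was above both other groups in every gradient. Kif22 in heavy polysomes stood at 64.1, 64.7, 71.0 and 56.1 CPM in LPS and 38.5, 48.8, 31.4 and 22.5 CPM in LPS+ET, and it did not pass (log2 change -0.95 ± 0.28 SE, adjusted p = 0.0302). The medians of the mitotic kinesins tested were -0.48 in monosomes, -0.76 in light and -0.72 in heavy polysomes, against 0.02, 0.01 and 0.01 over all genes. The transport kinesins tested, 5, 7 and 12 of them, had medians of 1.16, 0.22 and 0.35.

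With single gradients left out, the calls in monosomes were 1 or 2 and those in light polysomes 1 or 2, and Kif1c was among them each time. Without the gradient that stood apart, heavy polysomes had 5 calls, with Kif21b and Kif22 lower. Light polysomes then kept the calls of Kif18b and Kif1c and lost that of Kif11, which was also lost without some other single gradients. With the pool as a block, 6 kinesins were called in monosomes, beside 24.6% of genes, with Kif18b, Kif1b, Kif1c and Kif3b higher and Kif21b and Kif22 lower. In light polysomes 6 were called, beside 25% of genes, with Kif18b, Kif1b and Kif1c higher and Kif11, Kif22 and Kif4 lower. In heavy polysomes 7 were called, beside 20.6% of genes, with the same 3 higher and Kif11, Kif21b, Kif22 and Kif2a lower. LPS+ET+KU against LPS+ET gave 0 calls among the 16, 18 and 27 kinesins tested in the 3 classes by edgeR, beside 0.213%, 0.292% and 0.572% of genes, with 2, 5 and 6 kinesins at an unadjusted p under 0.05. DESeq2 called 0, 1 and 2 of them, and the blocked fit 1, 2 and 1, beside 5.62%, 5.35% and 3.27% of genes. Those were Kif1c lower in monosomes, Kif18b lower and Kif3c higher in light polysomes, and Kif18b lower in heavy polysomes. In a comparison added after the data were seen, LPS+ET+KU against LPS gave 2 of 16, 4 of 18 and 6 of 27, beside 5.96%, 7.13% and 7.95% of genes. In heavy polysomes those were Kif22 (-1.62 ± 0.29), Kif11 (-1.48 ± 0.27), Kif18a (-1.56 ± 0.25) and Kif20a (-1.34 ± 0.20) lower, and Kif1b and Kif3c higher.

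Relative to the other mRNA of a fraction, kinesin mRNA was higher at the heavy end of the gradients, and that of the mitotic kinesins most of all. The median of the 4 LPS gradients for the 11 mitotic kinesins together was 86.2 CPM in fraction 5 and 1112 CPM in fraction 15, while that for the 15 transport kinesins was 28 and 219 CPM. These are single fractions, fraction 15 being the peak of the mitotic sum in LPS, and do not give the contrast between whole classes. With every fraction scaled to the same total, an even profile would put 46.2% of the signal of a gene in the 6 heavy fractions. Equal RNA was taken from each fraction, so such a share is a relative profile. It does not give the percentage of an mRNA that was on heavy polysomes. The median share over all 8000 genes with 100 or more counts per gradient on average was 55.2% in LPS, with quartiles of 41.9% and 66.1%. The 9 mitotic kinesins at that depth ranged from 63.6% to 86.4% with a median of 77.3%, and the 5 transport kinesins from 57.6% to 75.2% with a median of 63.7%. Across the 15 kinesins at that depth, Spearman's rho between the share and coding length was 0.19, over coding lengths of 1980 to 5448 bases. A relation between them was not tested. These points share the same libraries.

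**Figure D4:**
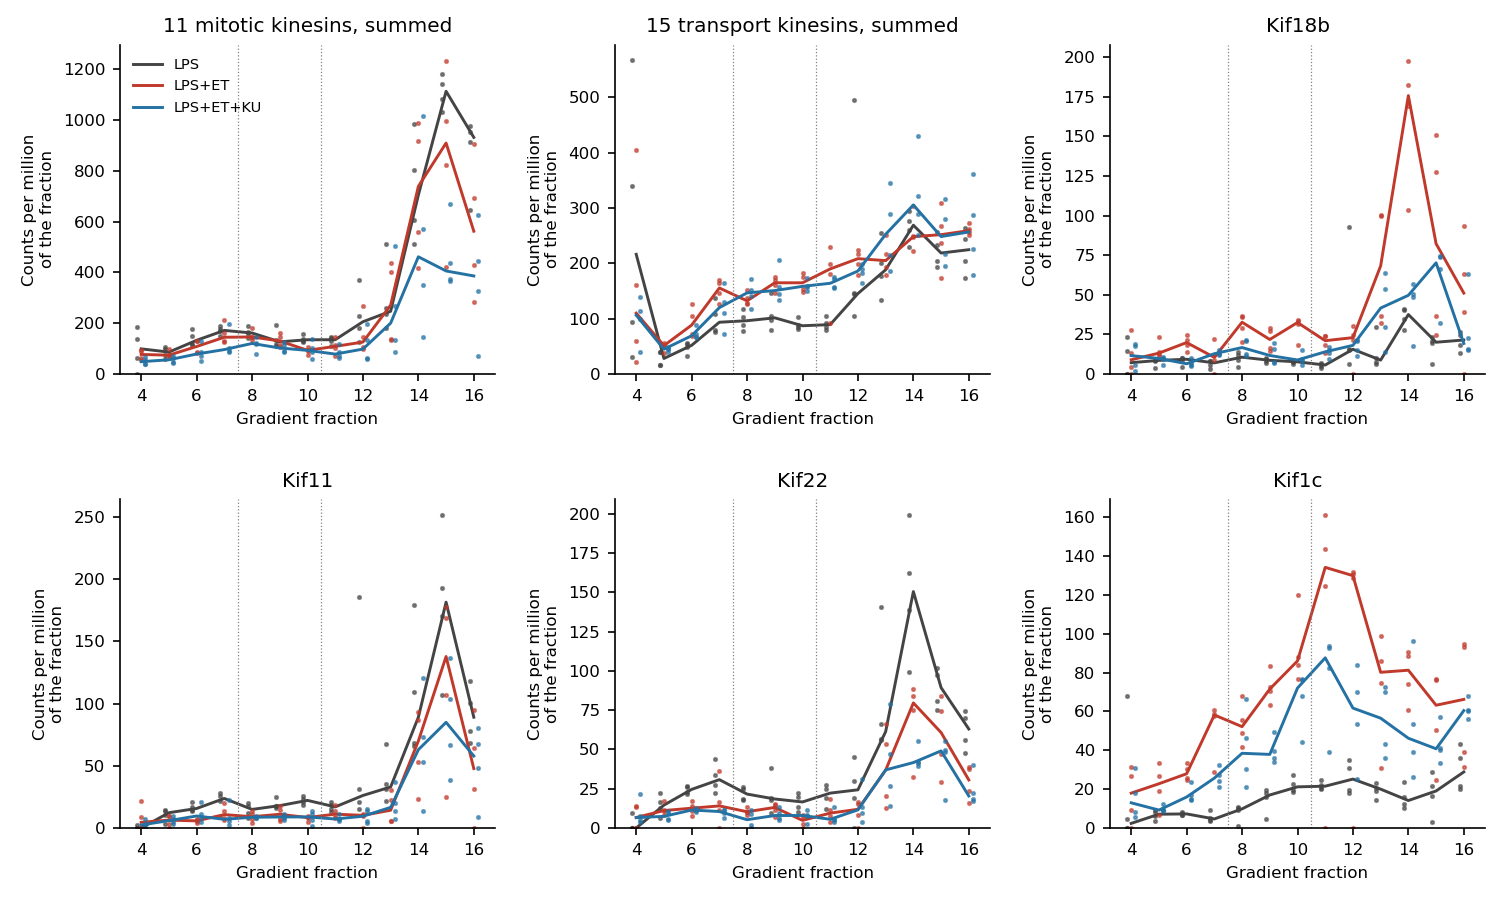
CPM in each fraction, from fraction 4 to 16, for the summed mitotic and transport kinesins and for Kif18b, Kif11, Kif22 and Kif1c. Points are single gradients, lines are medians of 4 by treatment, and dotted lines separate monosomes, light and heavy polysomes. The mitotic sum is highest in fraction 15 without the inhibitor and in fraction 14 with it, and Kif1c is highest in fraction 11 in LPS+ET.

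Kif4 had the highest share of the well counted kinesins, at 86.4% ± 2.80 (SD, n = 4) in LPS, 86.3% ± 2.69 in LPS+ET, then 81.9% ± 8.66 with the inhibitor. Kif11 followed at 82.4% ± 4.06, 81.5% ± 5.73 and 81.1% ± 2.82. Their means in LPS+ET lay within 1 SD of those in LPS. In LPS+ET+KU the single gradients of Kif4 spread widely, from 71.5% to 91.1%. Kif18b had 67.9% ± 9.43, 74.2% ± 3.77 and 72.5% ± 4.65, and Kif22 had 76.4% ± 2.31, 74.6% ± 5.80 and 73.9% ± 3.82. Kif15 had 78.9% ± 1.76, 76.9% ± 3.16 and 67.3% ± 5.91, the last with 67.7, 69.6, 72.9 and 59.0% in single gradients, all below those of LPS. Among the transport kinesins Kif1c had 61.1% ± 10.3, 55.4% ± 14.5 and 61.1% ± 5.60, and Kif5b had 75.2% ± 4.47, 66.5% ± 7.12 and 72.2% ± 2.40. Some shares depended on the scaling of fractions. With counts as deposited, Kif5b in LPS+ET had 76.1% and Kif11 in LPS+ET+KU had 71.1%.

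**Figure D5:**
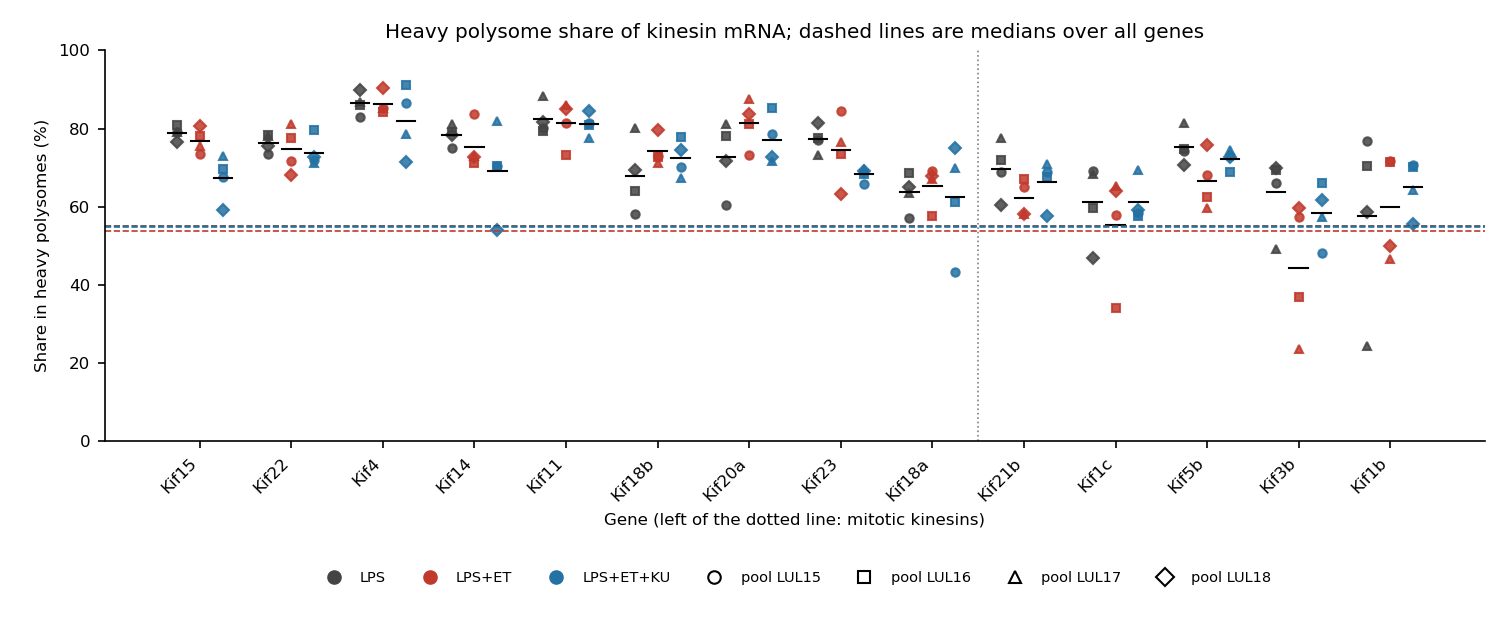
Share of each kinesin's signal that lies in heavy polysomes, with every fraction scaled to the same total, for the named kinesins with 100 or more counts per gradient on average. It is a relative profile and not the percentage of the mRNA itself. Points are single gradients, black bars are means of 4, and dashed lines are the medians over all genes at that depth, which lie at 55.2%, 53.9% and 54.7% for LPS, LPS+ET and LPS+ET+KU. All 9 mitotic kinesins have means above these lines.

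Heavy polysomes were also tested against monosomes within each treatment, in 24 kinesins. In the LPS gradients 13 of the 24 were called, all higher in heavy polysomes, beside 25.1% of the 11463 genes called higher and 46.1% called in either direction. In LPS+ET 12 were called, beside 26.8% higher and 46.1% in either direction, and in LPS+ET+KU 9 were called, beside 28.7% higher and 50.7% in either direction. In these fits no kinesin was called lower in heavy polysomes. Kif5a was called lower there in LPS+ET+KU with RLE normalization, without the filter and without the LUL16 gradient of that group. The mitotic kinesins had 7, 8 and 5 calls of 11, with medians of 0.95, 1.06 and 0.75 against 0.08, 0.16 and 0.14 over all genes. The transport kinesins had 5, 4 and 4 of 10. Kif4, Kif11, Kif14, Kif20a, Kif21b, Kif1c and Kif5b were called in all 3 treatments. With the LUL16 gradient left out the 12 calls in LPS+ET became 6.

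Whether the distribution itself changed was asked by testing the difference between heavy polysomes and monosomes against treatment. None of the 24 kinesins was called by edgeR, between LPS+ET and LPS (beside 2.51% of genes) or between the 2 etoposide groups (beside 0.0262%), and 5 and 1 had an unadjusted p under 0.05. None was called with RLE normalization, without the filter, without the shallow libraries or with any single gradient left out. A model of the single fractions, with treatment, fraction and their interaction, called 9 of 20 kinesins in LPS+ET against LPS, beside 31% of genes. It treats the 13 fractions of a gradient as separate libraries although they share that gradient, so its p-values for treatment are too small. They were Kif11, Kif14, Kif18a, Kif18b, Kif22, Kif1b, Kif1c, Kif21b and Kif2a. Between the 2 etoposide groups it called Kif18b and Kif3c, beside 8.01% of genes. The interaction alone, which tests a changed profile, called 0 kinesins in either comparison by edgeR, with 0 at an unadjusted p under 0.05. With a term for each gradient it again called 0, with 2 and 1 at an unadjusted p under 0.05.

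Genes that work with these motors were read from lists drawn up by function. Of 12 mitotic regulators and partners 5 fell with etoposide, beside 4.81% of all genes called lower, none rose, and all 12 values were negative, with a median of -1.07. They included the kinase Plk1 (-2.39 ± 0.32), the kinase Aurka (-1.62 ± 0.29), the centralspindlin subunit Racgap1 (-1.24 ± 0.24) and the midzone bundler Prc1 (-1.25 ± 0.25), as log2 changes with SE. In LPS+ET+KU against LPS 9 of the 12 fell, beside 4.42% of all genes called lower, and between the etoposide groups none of the 12 passed by edgeR and 1 by DESeq2, with 3 at an unadjusted p under 0.05. Of 11 kinesin adaptors and light chains tested none passed with etoposide by edgeR and 2 by DESeq2, with 4 at an unadjusted p under 0.05 and a median of 0.13. Of 18 dynein and dynactin genes, the motor that walks the opposite way, none passed by either tool, with 5 at an unadjusted p under 0.05 and a median of 0.08. Of the motors outside the name pattern, Kifc1 rose (1.70 ± 0.15), while Cenpe, a kinetochore motor, had -0.94 ± 0.25 and did not pass. In LPS+ET+KU, Kifc1 was lower than in LPS+ET without passing (-0.79 ± 0.15, adjusted p = 0.0169) and was called higher than in LPS (0.90 ± 0.15). Its directions in the 3 comparisons were those of Kif18b. Against LPS, Cenpe fell in LPS+ET+KU (-1.66 ± 0.25). Kifc2 had 1.08 ± 0.46 against LPS in LPS+ET, 1.54 ± 0.44 with the inhibitor added, and passed in neither (adjusted p = 0.110 and adjusted p = 0.0244). Kifc5b had 1.44 ± 0.18, but it is a near-identical copy of Kifc1, so the reads of the pair may have been split between them.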

How the data were processed

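Sequencing of transcript 3′ ends was read in 157 libraries of sucrose gradient fractions. The deposited values are raw counts per gene, with the sites of a gene already summed. The authors made them by trimming, removing PCR duplicates by random bases and aligning to GRCm38 (mm10). The submitters' processing notes name TopHat2 2.0.12, HTSeq and DESeq2 1.6.3. Equal RNA concentrations were reverse transcribed from each fraction, so library totals do not measure how much mRNA a fraction held. Titles spell the inhibitor KU55933 and characteristics KU59933.

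The 13 fractions were summed per gradient. Of the 156 columns used, 78 matched the labels only by treatment and fraction. CPM were taken against the TMM-scaled gradient total. The main test was edgeR 4.0.16 (quasi-likelihood, TMM, filterByExpr, treatment only, all 12 gradients) in R 4.3.3, checked on simulated data. Alternatives used DESeq2 1.42.0, limma 3.58.1 (pseudocount 0.5 CPM), the pool as a block, other filters, and each gradient left out. Pool names come from the column names. Gradients of a pool deviated together, with correlations of 0.30 to 0.80 in all 12 pairs, so the pool pairs the gradients. Kinesins named singly were the 11 mitotic, the 5 most abundant transport and any other kinesin called. The members and lists were chosen with earlier results of these data known. A library of fraction 17 held 777 counts and was not used.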

Additional observations from a re-analysis of the deposited data

Results flagged for a closer look

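Of 102 groups of 4 gradients examined for the 17 kinesins named singly, 10 held a gradient far from the other 3, where chance gives about 1 in 20. Kif1c in LPS+ET was lowest in pool LUL16 at 42.1 CPM, against 85.8 to 91.0 CPM in the others, and this is the gradient with the low share of counts in heavy polysomes. Kif21b in LPS+ET+KU was highest in pool LUL16 at 68.5 CPM, against 31.4 to 36 CPM. Kif15 in LPS was highest in pool LUL17 at 94.3 CPM, against 63.1 to 67.8 CPM. Kif18b in LPS+ET was highest in pool LUL18 at 45.7 CPM, against 40.5 to 41.0 CPM, a close group. Kif23 in LPS+ET was highest in pool LUL15 at 15.8 CPM, against 9.23 to 10.4 CPM. Kif20b in LPS+ET+KU was highest in pool LUL18 at 1.38 CPM, against 0.636 to 0.728 CPM.

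The other 4 were shares in heavy polysomes, and in each the gradient that stood apart was the highest. Kif14 in LPS+ET reached 83.8% in pool LUL15, against 71.2% to 72.9%. Kif4 in LPS+ET reached 90.3% in pool LUL18, against 84.4% to 85.3%. Kif1c in LPS+ET+KU reached 69.5% in pool LUL17, against 57.6% to 59.2%, and Kif22 reached 79.5% in pool LUL16, against 71.3% to 72.6%.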

How the results depend on the processing

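Counts of kinesins called moved with the setting, and the cause was not tested. In LPS+ET against LPS the 5 calls became 9 with DESeq2, 11 with the pool as a replicate block, 11 at an adjusted p under 0.05 and 3 with the limma fit of equally weighted fractions, which changes weighting and tool together, and ranged from 4 to 6 with 1 gradient left out. In LPS+ET+KU against LPS+ET the 1 call became 2 with DESeq2, 3 with the block, 2 at an adjusted p under 0.05, and 0 with only the 8 compared gradients or with that limma fit, where 7 kinesins each had an unadjusted p under 0.05. It ranged from 1 to 2 with 1 gradient left out. In LPS+ET+KU against LPS the 10 calls became 17 with the block and 6 with the limma fit, and ranged from 5 to 12. In LPS+ET against LPS within classes the block gave 6 in monosomes, 6 in light and 7 in heavy polysomes, DESeq2 gave 5 in heavy polysomes, and leaving out 1 gradient gave 1 to 2, 1 to 2 and 3 to 5. In LPS+ET+KU against LPS+ET within classes the block gave 1, 2 and 1, DESeq2 gave 1 in light and 2 in heavy polysomes, and leaving out 1 gradient gave 0 to 1 in heavy polysomes. Heavy polysomes against monosomes ranged from 6 to 11 in LPS+ET and from 6 to 8 in LPS+ET+KU with 1 gradient left out, and gave 14 in LPS+ET+KU without the filter, where more genes were tested and Kif5a was lower. In single fractions, the interaction gave 0 in both comparisons, with or without a term per gradient, and the block gave 4 in LPS+ET+KU against LPS+ET.

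Without Kif1c, an alternative added after the data were seen, the difference in the summed transport kinesins turned from 34.8 to -23.7 CPM in LPS+ET minus LPS and from 15.5 to -12.9 CPM in LPS+ET+KU minus LPS. Kif21b, whose mean was lower in both etoposide groups, stayed in that sum. Other reversed values were small in most fits. Kif5b in LPS+ET against LPS became -0.02 without the filter and ranged from -0.15 to 0.13 with 1 gradient left out. Between the etoposide groups Kif1b became -0.01 with DESeq2, -0.02 with RLE normalization and -0.30 with the limma fit, and ranged from -0.04 to 0.04. Kif2c became -0.44 with the limma fit and ranged from -0.02 to 0.88, and Kif21b ranged from -0.14 to 0.36. In LPS+ET+KU against LPS, Kif5b became 0.17 with the limma fit. The other log2 changes of the 17 named kinesins kept their direction. Of their heavy polysome shares, 12 moved and 39 stayed the same when counts were used as deposited, without scaling of fractions. Kinesins with few counts, such as Kif20b and Kif2c, are limited by depth.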
